A study of Mus musculus with 4 samples.

Results

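Cultured primary (1°) mouse oligodendroglial cells (OGCs) were studied with and without conditional deletion of Zfp276. The 10 Fanconi anaemia genes followed in them were Fanca, Fancb, Fancc, Fancd2, Fance, Fancf, Fancg, Fanci, Fancl and Fancm. They were chosen by symbol from the 53465 genes of the count files, each matched exactly 1 entry, and all 10 passed the filter on low counts that left 15766 tested genes. Ctrl cells carried the Zfp276 flox/flox allele without Cre, and Zfp276cko cells carried the same allele together with the Sox10::Cre transgene. Cre removes exons 2 to 5 of Zfp276, and the BAC transgene is active in the OL lineage from the precursor stage. The removed stretch includes intron 4, in which the paper places a Zfp276 enhancer activated by Sox10. The paper describes the deletion as incomplete, and the allele was not measured by cell type in these libraries. Mice for such cultures also carried a Rosa26 allele with a floxed stop before tdTomato and had mixed C3H and C57Bl/6J ancestry. The cells were taken from the forebrain between postnatal days 2 and 4, passed through mixed glial culture, shake-off and microglial depletion, and kept in differentiation medium for 3 days. There were 2 preparations per genotype, each pooled from 3 mice.

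The products of these genes repair DNA crosslinks that join both strands and block replication. A core complex that includes Fanca, Fancb, Fancc, Fance, Fancf, Fancg and the ubiquitin ligase Fancl is brought to the stalled fork by the DNA translocase Fancm, and attaches ubiquitin to the paired proteins Fancd2 and Fanci. The modified pair then recruits nucleases and factors of homologous recombination. The pathway works during S phase, and several of its genes are more highly expressed in dividing than in resting cells. Fanca has a further link to the study, since its last exons lie antisense to the last exon of Zfp276, the gene that was deleted.

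Counted reads per library lay between 21068322 and 26599809. Normalized counts of Zfp276 were 1648 and 2230.3 in the ctrl and 489.5 and 503 in the Zfp276cko preparations (replicate 1 before replicate 2, here and throughout), so that 25.6% of the ctrl mean remained. Its log2 fold change was −1.97 (standard error 0.18), with an adjusted p of 0.0962 from edgeR's quasi-likelihood fit and 1.25e-14 from DESeq2. All 10 oligodendroglial markers were counted in every library, with Sox10 between 17805 and 20744 and Mbp between 87161 and 177958 normalized counts. Their sum was 338457 and 448587 in ctrl and 233031 and 236297 in Zfp276cko libraries, and 8 of the 10 lay below both ctrl libraries (0 called by edgeR, 6 by DESeq2), compared with 23.7% of all tested genes below both and 2.11% called lower by DESeq2. The ctrl replicates differed more from each other than the Zfp276cko replicates did, with median absolute log2 differences of 0.29 and 0.09 over genes with a mean of at least 20. In ctrl replicate 1, the 8 fibroblast and vessel markers summed to 8110.4 normalized counts against 264 to 385 in the other libraries, mostly from the collagen genes Col1a1, Col1a2 and Col3a1 (2381 to 2703 each). The vessel marker Pecam1 had 106 and 93.4 in ctrl and 153 and 161 in Zfp276cko libraries, and Cldn5 was at 0 in all 4 libraries. The 6 neuronal markers summed to 14763 and 20843 in ctrl and to 12684 and 14258 in Zfp276cko libraries, and most of this sum was Map2, which lay below both ctrl libraries, as did Nefl. The other 4 (Rbfox3, Snap25, Syt1 and Stmn2) were lowest in ctrl replicate 1, with 14.2 to 35.6 normalized counts there and 106 to 874 in the other libraries. The summed microglial markers, without Itgam, whose symbol is listed for more than 1 gene, ranged from 15970.2 to 31968 in ctrl and from 20485 to 22078 in Zfp276cko libraries, and the astrocyte markers from 23200.3 to 27289 and from 25469 to 26286. Within these sums, single markers differed in direction between ctrl replicates 1 and 2. Gfap (17641 and 8463) and Slc1a2 were higher in replicate 1, while Slc1a3 (2674 and 6747), Aqp4, Gja1 and Aldh1l1 were lower. Of the microglial markers, Csf1r (11409 and 1850) was higher in replicate 1 and Aif1 (1248 and 3204) lower. The part of these cells in the results below was not tested. In such bulk libraries, fewer expressing cells and less RNA per cell cannot be told apart.

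Fanca lies on the minus strand of chromosome 8 of mm10 from 123268300 to 123318576, tail to tail with Zfp276 on the plus strand (123254195 to 123269745). Of the 43 exons of its full-length transcript, the last 4 (exons 40 to 43) fall within exon 11 of Zfp276. They comprise 552 nt, or 12.3% of the 4485 nt of the Fanca transcript. The loxP-flanked exons lie 9.91 kb from the nearest end of Fanca, and the Fanca start site lies 48.8 kb beyond the end of Zfp276.

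**Figure D1:**
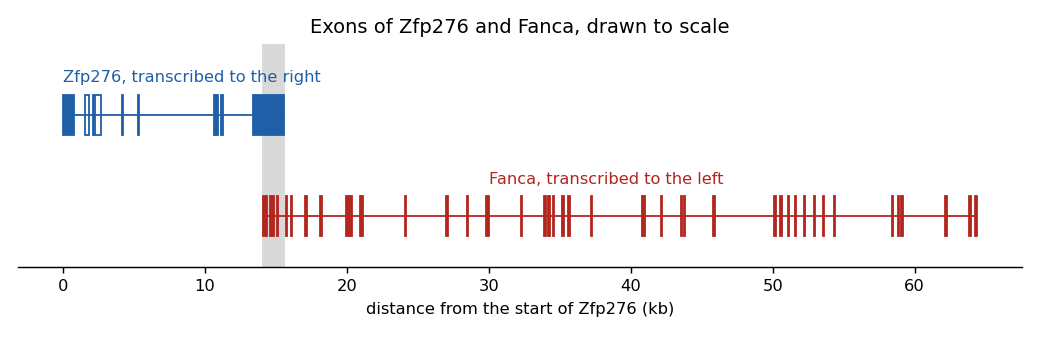
Exons of the full-length transcripts of Zfp276 (upper row) and Fanca (lower row) against the distance from the start of Zfp276 in kb, drawn to scale. Open boxes are exons 2 to 5, which Cre removes, and the grey band is the stretch where both genes overlap. It holds 4 exons of Fanca at its 3′ end.

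Whether reads of Zfp276 could enter the Fanca count depends on the strand setting of the counting, which the study's methods do not name. It could be read from the counts themselves. Among genes of at least 300 nt that lie wholly within the exons of a gene with a mean of at least 1000 counts, 70 lay on the opposite strand of their host and 9 on the same strand. Both counters named for these data drop reads that fall in 2 genes by default, so counting without regard to strand would leave such genes at 0, and 7 of the 9 on the same strand were at 0. Of the 70 on the opposite strand, 24 were at 0 and 46 had counts of their own, such as Bricd5 inside Mlst8 with 31, 50, 56 and 43 counts. The read density of the 70 relative to their hosts had a median of 0.102%, and the highest were Gm8203 inside Tmcc1 (38.5%) and Bricd5 (17.7%). The counts thus followed the annotated strand. Reads of Zfp276 on the wrong strand would add up to 0.201 counts to Fanca in a library at the median density. At the highest density, the added counts would be 53.4 and 76.2 for the ctrl libraries against 20.8 and 22.5 for Zfp276cko. These densities can include transcripts of the contained genes themselves, so they are not measured rates of wrong-strand reads. Both estimates use the 552 nt shared with the full-length Fanca transcript. All annotated exons of Fanca share 920 nt with those of Zfp276, for which the added counts would be higher. The part of such reads in the Fanca difference was not tested.

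Fanca encodes the large subunit of the core complex, and is the Fanconi anaemia gene most often affected in patients. It was counted 176 and 284 times in ctrl libraries and 446 and 425 times with Zfp276cko. After normalization these were 209 and 319.6 (ctrl) against 404 and 365 (Zfp276cko). The genotypes did not overlap, Zfp276cko was the higher and ctrl replicate 1 the lowest library, while Zfp276 moved the opposite way between genotypes. Between the ctrl libraries both genes were higher in replicate 2, by a log2 difference of 0.61 for Fanca and 0.44 for Zfp276. Between the Zfp276cko libraries these differences were −0.14 and 0.04. The ctrl mean of Fanca was 264 ± 78.2 (SD, n = 2), that of Zfp276cko 384 ± 27.2 (SD, n = 2), and their ratio 1.45. Its log2 fold change was 0.54 (standard error 0.26, 95% interval −0.16 to 1.24, Benjamini-Hochberg adjusted p = 0.410 over all tested genes in the quasi-likelihood test of edgeR), and DESeq2 gave 0.52 (adjusted p = 0.514). The size depended on the ctrl library. Leaving out ctrl replicate 1 gave 0.27 (adjusted p = 0.0960 from edgeR), and leaving out ctrl replicate 2 gave 0.86 (adjusted p = 2.04e-05 from edgeR). In these fits the remaining ctrl library is assumed to vary like the Zfp276cko libraries, and the latter called 1792 genes higher and 1286 lower over the whole table. The ratio of Fanca to Zfp276 normalized counts was 0.127 and 0.143 in ctrl and 0.824 and 0.726 in Zfp276cko libraries. Its denominator is the deleted gene, so this ratio would rise even with Fanca unchanged.

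Over the 10 genes, the pair of Zfp276cko libraries exceeded the pair of ctrl libraries in 6 (Fanca, Fancd2, Fance, Fancf, Fancg and Fanci) and lay below it in 0, and they overlapped in 4. Among all tested genes, 26.8% lay above and 23.7% below. The log2 fold change was positive for 7 of the 10 and negative for 3, against 49.9% and 50.1% of tested genes. None of the 10 was called by edgeR's quasi-likelihood test at an adjusted p of at most 0.05, a log2 fold change of at least 0.6 in either direction and a mean of at least 20 normalized counts, and the calls came to 0% of all tested genes in both directions. An unadjusted p of at most 0.05 was reached by 1 of the 10, Fancd2, which was higher, against 8.33% of tested genes higher and 7.3% lower. With the limits on fold change and mean added to the unadjusted p, 0 of the 10 remained, against 5.11% of tested genes higher and 3.02% lower. DESeq2 called 0 of the 10 at the same limits, while it called 2.8% of its tested genes higher and 2.11% lower. The median log2 fold change of the 10 genes was 0.19 and that of all tested genes −0.0013. The genes ranged from 88.4% to 146% of their ctrl mean in Zfp276cko cells.

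**Figure D2:**
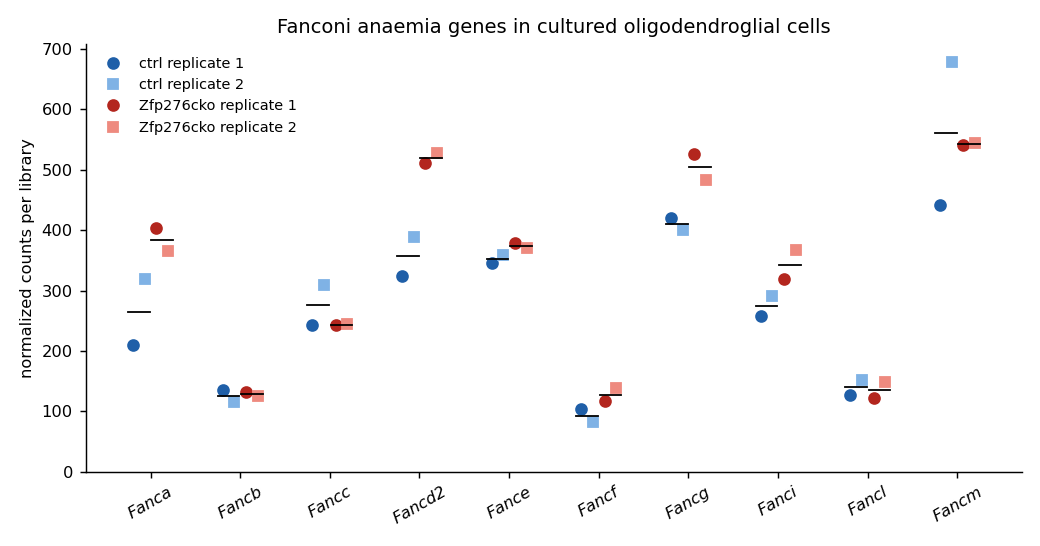
Normalized counts of the 10 Fanconi anaemia genes in each library, with ctrl in blue, Zfp276cko in red, replicate 1 as circles, replicate 2 as squares and black lines for the mean of each genotype (n = 2). The red points lie above the blue points for 6 genes, and Fancm has the widest gap between the ctrl libraries (442 and 679).

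The subunit that binds Fanca directly, Fancg (chromosome 4, 43002343 to 43010506), had 420.3 and 401 normalized counts in ctrl and 526 and 484 in Zfp276cko libraries. The ctrl replicates lay close together here, at 410.5 ± 13.9 (SD, n = 2), and the Zfp276cko mean was 505 ± 29.7 (SD, n = 2). The log2 fold change of 0.30 (standard error 0.13, 95% interval −0.07 to 0.66, adjusted p = 0.390 from edgeR) moved only between 0.24 and 0.36 with each library left out in turn.

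Fancl (chromosome 11, 26386135 to 26471876), the ligase subunit that transfers ubiquitin, had 127 and 152 normalized counts in ctrl and 121 and 149 in Zfp276cko libraries. Its partner Fancb (chromosome X, 164980592 to 164997272) had 135 and 115 in ctrl and 132 and 125 in Zfp276cko libraries. For both genes the genotypes overlapped. Their log2 fold changes were −0.05 (95% interval −0.69 to 0.60) and 0.04 (−0.55 to 0.63), and both intervals include differences of the size seen for Fanca.

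Fancc, Fance and Fancf form a further module of the core complex, and the 3 genes had unlike values. Fancf (chromosome 7, 51860577 to 51862267), whose annotated transcript is a single exon, had 103 and 82.1 normalized counts in ctrl and 117 and 138 in Zfp276cko libraries. Here ctrl replicate 2 was the lowest library, unlike for Fanca, and the log2 fold change was 0.46 (95% interval −0.23 to 1.15, adjusted p = 0.462 from edgeR). Leaving out ctrl replicate 1 gave 0.64 and leaving out ctrl replicate 2 gave 0.29. Fance (chromosome 17, 28313519 to 28326572), which contacts Fancd2, had 346 and 359 in ctrl and 378 and 370.3 in Zfp276cko libraries. These libraries did not overlap, but the log2 fold change was 0.09 (95% interval −0.29 to 0.47). Fancc (chromosome 13, 63285043 to 63497278) had 242 and 308 in ctrl and 243 and 244 in Zfp276cko libraries, with a log2 fold change of −0.18 (95% interval −0.71 to 0.36). Its Zfp276cko libraries lay within the range of the ctrl libraries.

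Fancm (chromosome 12, 65075603 to 65132058), the translocase that recognizes the blocked fork, had 442 and 679 normalized counts in ctrl and 541 and 544 in Zfp276cko libraries. The ctrl libraries lay on either side of the Zfp276cko libraries, and the log2 fold change of −0.05 turned on them, with −0.32 when ctrl replicate 1 was left out and 0.28 when ctrl replicate 2 was.

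The targets of the ligase were both higher in both Zfp276cko libraries. Fancd2 (chromosome 6, 113531682 to 113597017) had 324 and 389 normalized counts in ctrl and 511 and 528 in Zfp276cko libraries. The means of 357 ± 46.1 (SD, n = 2) and 519 ± 11.5 (SD, n = 2) differed 1.46-fold, which exceeded the distance between replicates in both genotypes. The log2 fold change of 0.54 (standard error 0.16, 95% interval 0.11 to 0.97) was as large as that of Fanca, with an adjusted p of 0.249 from edgeR and of 0.214 from DESeq2. Without ctrl replicate 1 it was 0.42 and without ctrl replicate 2 it was 0.67. Without Zfp276cko replicate 1 it was 0.57 and without Zfp276cko replicate 2 it was 0.52. Fanci (chromosome 7, 79391929 to 79450264) had 258 and 291 in ctrl and 319 and 367 in Zfp276cko libraries. Its log2 fold change was 0.32 (95% interval −0.15 to 0.79, adjusted p = 0.459 from edgeR).

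**Figure D3:**
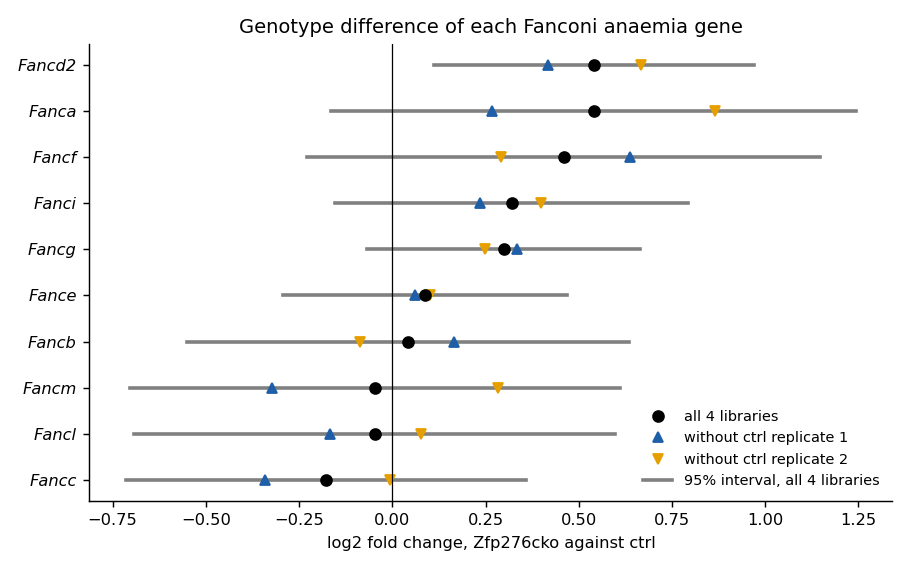
Log2 fold change of Zfp276cko against ctrl for each gene (black points) with its 95% interval from edgeR's quasi-likelihood fit (grey lines), and the values without ctrl replicate 1 (blue triangles, pointing up) and without ctrl replicate 2 (orange triangles, pointing down). The interval of Fancd2 is the only one of the 10 that lies wholly above 0, and the triangles lie furthest apart for Fancm (−0.32 and 0.28) and Fanca (0.27 and 0.86).

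Fanca was compared with the other 9 genes. One of them, Fancd2, had a larger log2 fold change, and the median of the 9 was 0.09. Fanca minus the mean of the other 9, on the log2 scale of library-scaled counts, was −0.18 and 0.31 in ctrl and 0.57 and 0.36 in Zfp276cko libraries. The gap between ctrl replicate 2 and Zfp276cko replicate 2 was smaller than the spread within either genotype, and with 2 libraries against 2 an exact permutation test (two-sided) cannot give a p below 0.333. Fanca made up 8.02% and 10.3% of the summed normalized counts of the 10 genes in ctrl and 12.3% and 11.02% in Zfp276cko libraries. Its profile over the 4 libraries, centred on its mean on the same log2 scale, was nearest to Fancd2 among the 10 genes (Euclidean distance 0.28), followed by Fanci (0.46) and Fancg (0.55). Among tested genes outside the lists, the nearest were Cchcr1 (distance 0.03), Rad54l (0.05), Gm2011 (0.06), Klf15 (0.08) and Gm42462 (0.08). Rad54l encodes a DNA translocase of homologous recombination. With 4 libraries such likeness is a description.

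Levels between genes were compared per kb of annotated exons. In ctrl cells Fance (110.3 ± 2.98 normalized counts per kb, SD, n = 2) and Fancg (108 ± 3.67) were the highest and overlapped each other, and both lay above Fancf (54.8 ± 8.84). From Fancf through Fancm, Fanci, Fancd2 and Fancb to Fancl (41.4 ± 5.22), neighbours in the order overlapped. Fancc (32.9 ± 5.59) lay below Fancl, and Fanca was the lowest (30.2 ± 8.93), overlapping Fancc. In Zfp276cko cells Fanca reached 43.9 ± 3.10 and lay at rank 7 and rank 9 of 10 in the 2 libraries, and Fancc was the lowest there. Relative to the 15463 tested genes with an annotated length, the 10 genes lay between the 24.0th (Fancc) and the 48.5th percentile (Fancg). The order depended on the length used. With the longest transcript in place of all annotated exons, the ctrl level of Fanca was 58.9 per kb and that of Fancc 86.97, which placed them at rank 7 and rank 3.

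The genes that act with the core complex were listed as Faap20, Faap24, Faap100, Cenps, Cenpx, Ube2t, Usp1, Wdr48 and Fan1. For 3 of the 9 the Zfp276cko libraries were the higher pair and for 3 the lower pair, against 26.8% and 23.7% of all tested genes. Ube2t, which delivers ubiquitin to Fancl, had 140.1 and 167 normalized counts in ctrl and 214 and 208 in Zfp276cko libraries (log2 fold change 0.46, adjusted p = 0.374 from edgeR). Usp1, which removes the ubiquitin from Fancd2 again, had 1143 and 1153 in ctrl and 880.4 and 971 in Zfp276cko libraries (−0.31, adjusted p = 0.291). The nuclease Fan1, which binds the modified Fancd2, had 389 and 380.4 in ctrl and 515 and 540.4 in Zfp276cko libraries (0.46, adjusted p = 0.240). None was called. At an unadjusted p of at most 0.05, 1 gene (Fan1) was higher and 1 (Usp1) lower, against 8.33% and 7.3% of tested genes. The median log2 fold change of the 9 was 0.13.

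A list of 26 genes act downstream or beside the pathway in crosslink repair and homologous recombination. The Zfp276cko libraries were the higher pair for 11 and the lower pair for 2, against 26.8% and 23.7% of all tested genes. Ctrl replicate 1 was the lowest library for 18 of the 26, against 33.3% of all tested genes. The median log2 fold change of the 26 was 0.08. None of them was called by edgeR or DESeq2. In edgeR 0 reached an unadjusted p of 0.05, against 8.33% of tested genes higher and 7.3% lower. The log2 fold changes ranged from −0.44 for Polh, a polymerase that bypasses lesions, to 0.74 for Brip1, a helicase that binds Brca1. Polh had 754 and 532 normalized counts in ctrl and 467 and 479 in Zfp276cko libraries. Brip1 had 92.6 and 195 in ctrl and 257 and 224 in Zfp276cko libraries. For Brip1 the ctrl libraries thus lay further apart than ctrl replicate 2 and the Zfp276cko libraries.

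Genes of S phase and mitosis were set beside the Fanconi anaemia genes. Ctrl replicate 1 was lower than the other 3 libraries for 22 of 24 genes of S phase and replication and for 20 of 20 genes of G2 and mitosis, against 33.3% of all tested genes and 6 of the 10 Fanconi anaemia genes. Summed over the list, S phase genes had 15553 and 25979 normalized counts in ctrl and 25680 and 25009.8 in Zfp276cko libraries. Ctrl replicate 2 therefore lay level with the Zfp276cko libraries. The median log2 ratio of the Zfp276cko mean to ctrl replicate 2 alone was 0.01 for the S phase genes and −0.10 for the mitotic genes, and to ctrl replicate 1 alone it was 0.79 and 0.52. For the Fanconi anaemia genes these medians were 0.20 and 0.28. The part of dividing cells in the differences of Fanca and Fancd2 was not tested.

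**Figure D4:**
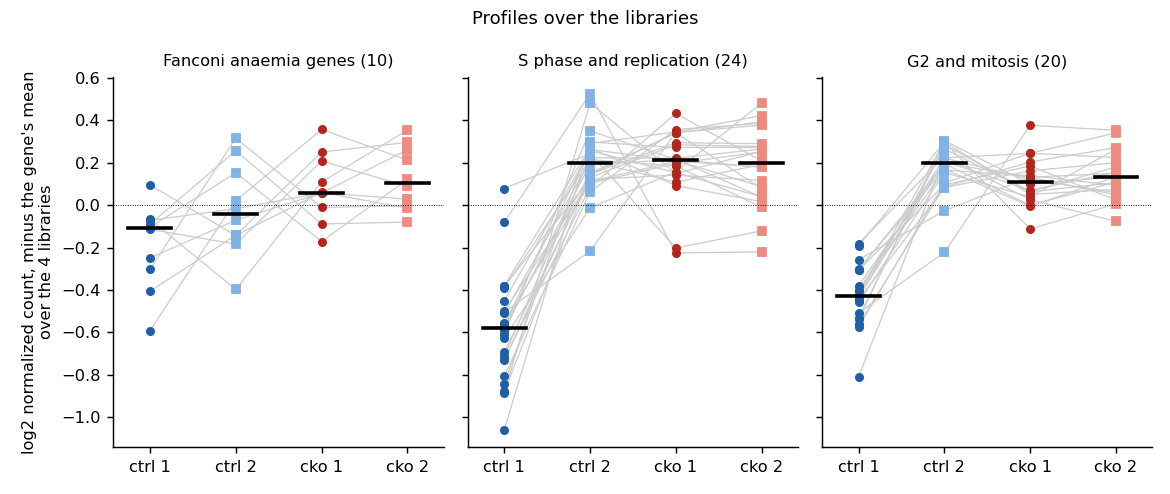
Log2 normalized count of each gene minus its mean over the 4 libraries, for 10 Fanconi anaemia genes, 24 genes of S phase and replication and 20 genes of G2 and mitosis. Each grey line is a gene, points are libraries (blue ctrl, red Zfp276cko) and black bars are medians. Ctrl replicate 1 is the lowest library for 22 of the 24 and 20 of the 20 cell cycle genes, and for 6 of the 10 Fanconi anaemia genes.

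Within these lists 0 genes were called. With both ctrl libraries, the median log2 fold change was 0.37 for S phase genes and 0.19 for mitotic genes. Above both ctrl libraries lay 10 of 24 S phase genes and 6 of 20 mitotic genes, and below both lay 2 and 0. Among all tested genes, the shares were 26.8% above and 23.7% below. Among S phase genes the log2 fold change was highest for E2f1 (0.71), a transcription factor of that phase. E2f1 had 210.1 and 257 normalized counts in ctrl and 378 and 387 in Zfp276cko libraries (adjusted p = 0.207 from edgeR). Among mitotic genes the log2 fold changes ran from −0.13 for Cenpf to 0.72 for the cyclin Ccnb2 (adjusted p = 0.195). E2f1 and Ccnb2 were the genes of their lists with an unadjusted p of at most 0.05, against 8.33% of tested genes higher and 7.3% lower. For both, ctrl replicate 2 lay below both Zfp276cko libraries.

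Genes around Fanca on chromosome 8 were examined to see whether the locus as a whole differed. Of 16 listed genes, 13 were tested, and Mc1r, Cpne7 and Dpep1 had at most 11 counts in any library. Including Zfp276, 6 of the 13 lay below both ctrl libraries and 3 above both, against 23.7% and 26.8% of all tested genes. The 3 above were Spire2, Def8 (log2 fold change 0.27, 95% interval 0.03 to 0.50, adjusted p = 0.280 from edgeR) and Chmp1a (0.09, −0.14 to 0.32). Spire2, beyond Fanca on the far side from Zfp276 (123332713 to 123369515), had 34.4 and 74.3 normalized counts in ctrl and 102 and 89.4 in Zfp276cko libraries, and its log2 fold change was 0.81 with a 95% interval from −0.39 to 2.01. On the other side, Vps9d1, which starts head to head with Zfp276 (123242356 to 123254348), had 849 and 929 in ctrl and 742 and 711 in Zfp276cko libraries. Spata2l (123229801 to 123236233) had 179 and 176 in ctrl and 99.5 and 96.2 in Zfp276cko libraries. Its log2 fold change was −0.86 (standard error 0.20, 95% interval −1.40 to −0.32, adjusted p = 0.191 from edgeR and 0.0816 from DESeq2). The DESeq2 call in this list was Zfp276. Tcf25, further along (123373753 to 123403835), had a log2 fold change of −0.20.

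**Figure D5:**
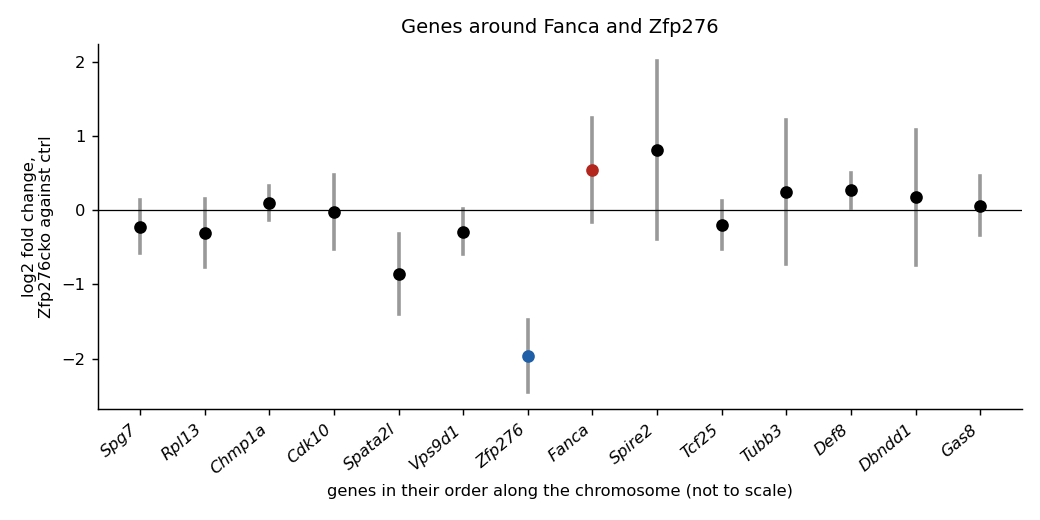
Log2 fold change of Zfp276cko against ctrl (points) with 95% intervals (grey lines) for the tested genes around Zfp276 (blue) and Fanca (red), in their order along chromosome 8. Zfp276 is lowest at −1.97, Spata2l is at −0.86, and Fanca (0.54) and Spire2 (0.81) are the highest, both with intervals that cross 0.

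Promoter sequences were examined because the Zfp276cko libraries were the higher pair for 6 of the genes. RefSeq windows on GRCm38.p6, with 250 bases before and 50 after the start site, were found for 9 of the 10 genes. Fancd2 had no entry. For Fancc, Fance, Fancg, Fanci and Fancl the RefSeq start site lies inside the gene as annotated by GENCODE. The 250 bases before it then lie partly (Fance and Fancg) or wholly (Fancc, Fanci and Fancl) within that gene. They were searched on both strands for E2F words (TTTCCCGC, TTTGGCGC, TTTCGCGC and TTTGCCGC), the CCAAT box (CCAAT) and CHR words (TTTGAA and TTCGAA). An E2F word was found in 1 of the 9 (Fancg), compared with 3.96% of the windows of tested genes. A CCAAT box was present in 6 of 9 compared with 38.5%, and a CHR word in 0 of 9 compared with 13.6%. The 250 bases upstream of the RefSeq start site are shown for the 3 higher genes with the E2F word or with more than 1 CCAAT box, 5′ to 3′ on the strand of the gene, with these words in capitals. They lie at chr8:123318577-123318826 for Fanca, chr7:51862268-51862517 for Fancf and chr4:43010302-43010551 for Fancg, each on the minus strand.
Fanca: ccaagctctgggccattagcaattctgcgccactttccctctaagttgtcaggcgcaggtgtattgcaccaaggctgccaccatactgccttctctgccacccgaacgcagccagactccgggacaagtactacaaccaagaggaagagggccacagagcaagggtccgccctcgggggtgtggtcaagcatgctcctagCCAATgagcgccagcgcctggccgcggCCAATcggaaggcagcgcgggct
Fancf: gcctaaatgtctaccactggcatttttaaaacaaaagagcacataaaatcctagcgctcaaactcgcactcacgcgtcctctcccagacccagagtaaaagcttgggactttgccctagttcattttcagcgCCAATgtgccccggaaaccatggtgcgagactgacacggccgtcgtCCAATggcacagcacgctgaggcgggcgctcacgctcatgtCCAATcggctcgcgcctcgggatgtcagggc
Fancg: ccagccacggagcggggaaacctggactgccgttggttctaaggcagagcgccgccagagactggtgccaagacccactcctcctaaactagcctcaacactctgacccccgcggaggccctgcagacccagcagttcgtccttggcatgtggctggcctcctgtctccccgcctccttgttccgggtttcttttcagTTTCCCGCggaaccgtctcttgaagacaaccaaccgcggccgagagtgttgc

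The Fanca window holds CCAAT boxes that begin at −50 and −23 from the start site, and that of Fancf at −118, −72 and −31. The E2F word of Fancg begins at −52 from its RefSeq start site, which is inside the gene as annotated by GENCODE. Of the genes in which the genotypes overlapped, Fancb, Fancc and Fancm also hold a CCAAT box, and Fancl holds none of these words. Among the higher genes Fance holds a CCAAT box, at −202 on the other strand, and Fanci none of the words.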

How the data were processed

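RNA-Seq libraries (TruSeq Stranded mRNA, single-end) came from 2 preparations of ctrl and 2 of Zfp276cko 1° mouse OGCs. STAR 2.5.4a and mm10 are listed for mapping, and the authors deposited raw whole-number counts by gene symbol. The study's methods name HTSeq on Ensembl genes as the counter, whereas the submitters' processing notes list featureCounts 1.5.1. Positions, exons and lengths came from GENCODE M21 (GRCm38), in which 93.0% of the 53465 entries matched by symbol.

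Genes kept by filterByExpr (15766, with 99.9% of counts) were normalized with TMM and compared with edgeR 4.0.16 (R 4.3.3), using the quasi-likelihood test without covariates and Benjamini-Hochberg adjustment over all tested genes. Genes were called at adjusted p ≤ 0.05, |log2 fold change| ≥ 0.6 and a mean ≥ 20 normalized counts, which are counts scaled to the mean effective library size. DESeq2 1.42.0 was the alternative. No block was used, since the labels give the replicate numbers no shared animal or day and same-numbered libraries did not deviate together (r = 0.0064 over 14324 genes). The Fanconi anaemia genes and the lists were chosen with earlier results of these data known. Examples from a list are its highest and lowest log2 fold change (1 such example is not reported here), and Fan1, Spata2l, Vps9d1, Tcf25, Def8, Chmp1a, Bricd5, Gm8203 and the single cell type markers were named after their values were seen. Each preparation pooled several mice, and p-values cover the spread between 2 preparations per genotype.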

Additional observations from a re-analysis of the deposited data

How the results depend on the processing

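Fanca had a positive log2 fold change under each alternative run, and with each library left out in turn it lay between 0.27 and 0.86. It was past the limits only without ctrl replicate 2, as was Fancd2 (0.67), while Fancf (0.64) was past them only without ctrl replicate 1. The sign turned without ctrl replicate 2 for Fancb, Fancl and Fancm, and without Zfp276cko replicate 1 for Fancl. Their ranges with each library left out were −0.086 to 0.17, −0.20 to 0.10 and −0.32 to 0.28. Such fits assume that the lone ctrl library varies like the Zfp276cko libraries. In an alternative chosen after seeing the data, both Zfp276cko libraries lay above the remaining ctrl library for 7 and 8 of the 10 genes without ctrl replicates 1 and 2, and below it for 3 and 1. Among all tested genes these shares were 44.4% and 46.5% above and 42.6% and 41.7% below.

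Over all genes, 0 were called lower and 0 higher. With each library left out, these counts lay between 0 and 1286 and between 0 and 1792, with 952 and 1689 without ctrl replicate 1. DESeq2 called 335 lower and 445 higher, an unadjusted p 476 and 806, and edgeR without a filter 8 higher. With the replicate number as a block, Fanca was at 0.57 (adjusted p = 0.553) and 0 genes were called, so that the block changed no call. The cause of these differences was not tested. The spread between the ctrl libraries limits what these counts can show for the Fanconi anaemia genes.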
